A study of Mus musculus with 12 samples.

Results

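Contacts of the Shh locus in mouse embryonic stem cells with an activator placed at the enhancer SBE6 were set against those in untransfected stem cells. The members were chosen by their labels: the 1 library of the group named tSBE6-Vp64 and the 2 biological replicates of the group named ESC, 3 of the 12 libraries of the series. Contacts were measured by 5C, in which crosslinked chromatin is cut with HindIII and religated, and a read counts a ligation product between 2 fragments with designed oligonucleotides. Both groups are of the 46c mouse embryonic stem cell line, and tSBE6-Vp64 is labelled as transfected. The t in its name was taken to mean a TALE, that is, a protein built to bind a chosen DNA sequence, and Vp64 a transcription activator joined to it. No group carrying a binding protein without the activator was analysed here, so effects of transfection, of binding at SBE6 and of the activator cannot be told apart. The labels do not give the share of cells that carried the construct. With 1 tSBE6-Vp64 library the differences have no replicate check and no test was made.

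The Shh protein is a signal released by cells, with roles in the patterning of neural tube and limb. Its enhancers lie far from the gene within a long stretch of chromatin, called the Shh domain here, that ends near the promoter of Lmbr1. SBE6, SBE4 and SBE2 act on Shh in neural tissue, and ZRS, which lies inside Lmbr1, drives it in the limb bud. Fragments that are close along the DNA are ligated more often than distant ones, so 5C signal falls with distance and a contact is read against others of like distance.

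The region ran from 28317087 to 30005000 on chromosome 5 (mm9) and held 341 fragments present in every file, with a median length of 2.42 kb. Of their 57970 pairs, 28980 were above 0 in at least 1 library of the series, and only these were used. All of these joined a fragment of a set of 176 with a fragment of the remaining 165, and 0 joined fragments of the same set. Of the 29040 pairs between the 2 sets, 60 were at 0 in every library. Pairs within a set are therefore not read as lacking contact. Signal is given as reads of a fragment pair per 1000 reads of the library. Implied depth was 22.0 M reads (M, mega) in ESC replicate 1, 20.7 M in ESC replicate 2 and 44.2 M in tSBE6-Vp64. The ESC replicates differed in evenness at nearly equal depth: 86.7% of the pairs were above 0 in replicate 1 and 49.9% in replicate 2, against 91.5% in tSBE6-Vp64. The 316 highest pairs held 50% of the signal in ESC replicate 1, the 151 highest in replicate 2 and the 467 highest in tSBE6-Vp64. A count of 0 still allows an expected count of up to 3 reads, a signal of 1.37e-04, 1.45e-04 and 6.79e-05 in the same order. Reads of 5C are copies made by amplification, so these floors cover counting error only.

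Each tSBE6-Vp64 value is given a place against the ESC range, the interval between the 2 ESC values: above it, within it or below it. The range is that of 2 libraries and is wide wherever these disagree. Where ESC replicate 2 was at 0, a value could not lie below the range. Log2 differences compare tSBE6-Vp64 with the mean of the 2 ESC values on a log2 scale after adding 9.06e-04, the 5th percentile of bin-pair signal, which shrinks differences of low values.

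A group of 14 windows marked genes and enhancers along the region, each reaching 20 kb to either side of an approximate position. The position of SBE2 was the least certain, and the enhancer may lie outside the window that carries its name. The Shh window covered fragments from 28770697 to 28806894 and the SBE6 window those from 28876512 to 28899338. The SBE4 window ran from 29130489 to 29160128, the SBE2 window from 29206157 to 29246728 and the ZRS window from 29622314 to 29658283. Sequence on the Shh side of the domain held the windows of Insig1, En2, Cnpy1 and Rbm33. Rnf32, ZRS and Lmbr1 lay towards the other end of the domain, and Nom1, Mnx1 and Ube3c beyond it, on the far side.

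The contact of Shh with SBE6, the pair that the activator concerns most directly, was higher in tSBE6-Vp64 than in either ESC library. Its mean signal over 45 fragment pairs, centred 91 kb apart, was 0.0186 in ESC replicate 1, 0.0144 in ESC replicate 2 and 0.0297 in tSBE6-Vp64. The ESC mean was 0.0165 ± 0.0030 (SD, n = 2), and the log2 difference was 0.83. These values rest on 18410, 13384 and 59128 reads in the same order. Against ESC replicate 1 alone the log2 difference was 0.65 and against ESC replicate 2 alone 1.00. With every library thinned to 20.7 M reads, an alternative added after the values were seen, it was 0.83. Of the 91 pairs among the windows, 40 (44%) lay above the ESC range and 12 (13.2%) below it, so a place above the range was common among windows. The median log2 difference over all 3504 pairs of 20-kb bins was itself 0.44, and relative to it Shh with SBE6 stood at 0.38. At like distance, with bin starts 50 to 100 kb apart, the median was 0.52 and 62.3% of bin pairs lay above the range. The median over all bin pairs moved with the ESC library used. Against ESC replicate 2 alone it was 0.71, with Shh and SBE6 0.29 above it, and against ESC replicate 1 alone 0.088, with Shh and SBE6 0.56 above it.

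Within the Shh and SBE6 windows the higher value was spread over many fragment pairs. Of the 45, 28 lay above the ESC range, 12 within it and 5 below it. Among all 28980 fragment pairs these shares were 43.8% above and 12.3% below. The highest in tSBE6-Vp64 joined Shh_151 (28798546 to 28799298) with Shh_180 (28889233 to 28895175), with 0.0316 and 0.0380 in the ESC replicates and 0.102 in tSBE6-Vp64. The next joined Shh_152 with Shh_181 and had 0.0548, 0 and 0.101. No single pair made up most of the mean, since the highest held 7.63% of the summed tSBE6-Vp64 signal of the 45. The median fragment pair had 0.0137 in ESC replicate 1, 0.00247 in ESC replicate 2 and 0.0245 in tSBE6-Vp64. ESC replicate 2 had 19 of the 45 at 0, against 1 in each of the other libraries, and so set the lower end of the range in many of them.

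Shh contacts with the other enhancers and with Rnf32 stood in the same way. With SBE4, a forebrain enhancer, the signal was 0.0181 and 0.0123 in the ESC replicates and 0.0255 in tSBE6-Vp64 (log2 0.74). With the SBE2 window, farther away, it was 0.0124, 0.00664 and 0.0194 (log2 1.01). With Rnf32, a RING finger gene of the domain, it was 0.0114, 0.00655 and 0.0162 (log2 0.84). With ZRS, the limb enhancer 845 kb from Shh, it was 0.0203, 0.0112 and 0.0295 (log2 0.93). Each of these 4 tSBE6-Vp64 values lay above both ESC values, as for SBE6, so a higher signal was found at several places in the domain and not at SBE6 alone. For Lmbr1, at the far edge of the domain, tSBE6-Vp64 (0.0334) lay between ESC replicate 1 (0.0169) and ESC replicate 2 (0.116), and a single fragment pair held 78.8% of the signal of replicate 2 there.

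Outside the domain the Shh window had smaller differences, in both directions. With En2, which encodes a homeobox protein of the midbrain and hindbrain, the signal was 0.0257 and 0.0304 in the ESC replicates and 0.0215 in tSBE6-Vp64, below both (log2 -0.37). With Insig1, a regulator of sterol synthesis, tSBE6-Vp64 (0.0188) lay just above the ESC values (0.0160 and 0.0182). With Rbm33, an RNA-binding protein gene, it was 0.00852 against 0.00596 and 0.00617 (log2 0.44, close to the bin-pair median). Cnpy1, beside En2, was within the range at 0.0136. On the far side, Nom1 was within the range (0.00646 against 0.00871 and 0.00506). Mnx1, a homeobox gene of motor neurons, was below it at 0.0143 against 0.0190 and 0.0157. Ube3c, a ubiquitin ligase gene, was marginally below it at 0.00708 against 0.00714 and 0.0114. By class, Shh with the 6 other windows of the domain had a median log2 difference of 0.83, with the 4 genes on its own side 0.10 and with the 3 far-side genes -0.26. Lmbr1 was counted in the domain.

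**Figure D1:**
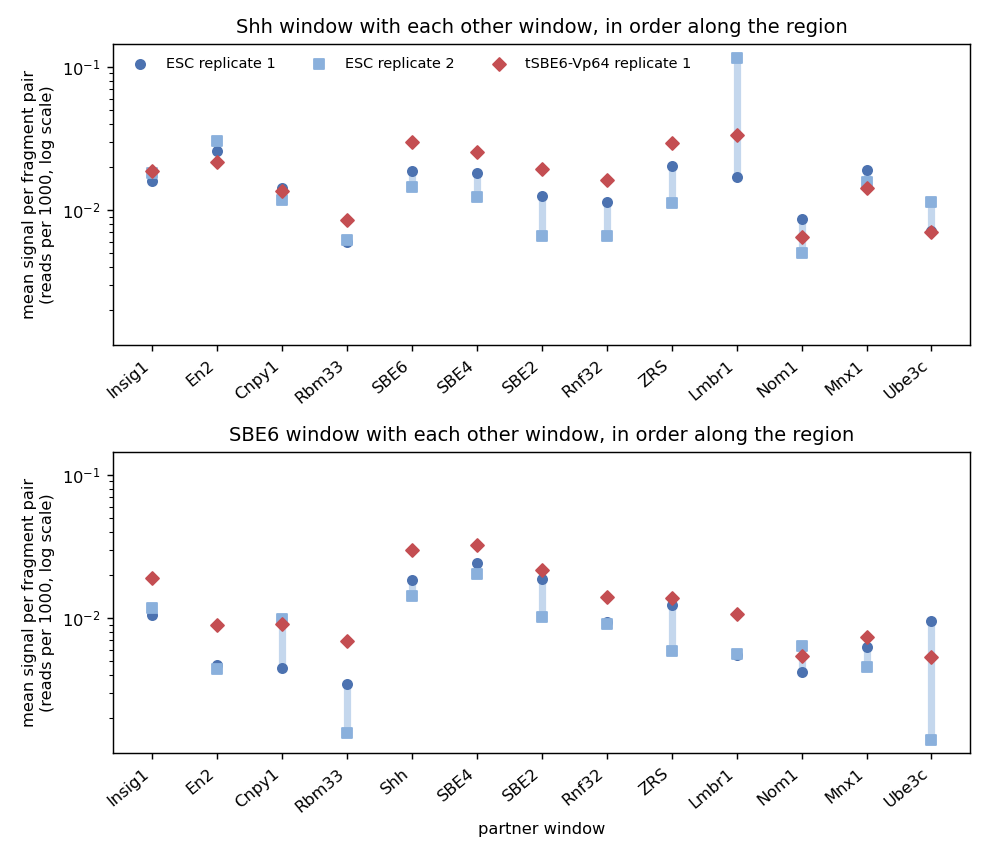
Mean signal per fragment pair (log scale) of the Shh window (top) and the SBE6 window (bottom) with each other window, in order along the region. Points are single libraries and pale bars join the 2 ESC replicates. With Shh, tSBE6-Vp64 lies above both ESC values for SBE6, SBE4, SBE2, Rnf32, ZRS, Insig1 and Rbm33 and below both for En2, Mnx1 and Ube3c; with SBE6 it lies above both for 10 of 13 partners.

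The SBE6 window itself had more signal in tSBE6-Vp64 with most other windows, on both sides of the Shh gene. Of its 13 pairs, 10 lay above the ESC range, 3 within it and 0 below it, with a median log2 difference of 0.60. The 66 pairs of windows without Shh or SBE6 had 24 above, 33 within and 9 below, with a median of 0.19. Counted window by window, Rnf32 had 9 of 13 pairs above (median 0.32) and En2 8 of 13 (median 0.45). Insig1, Rbm33, Shh and ZRS had 7 each, Nom1 and Mnx1 2 each and Ube3c 1. These counts include the pair of each window with SBE6. SBE6 had a signal of 0.0241, 0.0205 and 0.0327 with SBE4 (ESC replicate 1, ESC replicate 2, tSBE6-Vp64). With SBE2, the other neural enhancer, it was 0.0187, 0.0103 and 0.0216. With Rnf32 it was 0.00945, 0.00913 and 0.0141, with ZRS 0.0124, 0.00591 and 0.0139 and with Lmbr1 0.00554, 0.00567 and 0.0108. All 5 lay above both ESC values, with log2 differences of 0.54 to 0.84. The ESC replicates were close to each other for Rnf32 and Lmbr1, and far apart for SBE2 and ZRS. The 20-kb bin starting at 28880001 covers most of the SBE6 window. Its signal summed over all partners more than 20 kb away was 17.3, 25.1 and 23.9, within the ESC range.

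On the Shh side, SBE6 also had pairs above the range. With Rbm33 the signal was 0.00347, 0.00159 and 0.00695 (log2 1.25), so tSBE6-Vp64 stood well above either ESC library. With En2 it was 0.00475, 0.00444 and 0.00892 (log2 0.84), and with Insig1 0.0105, 0.0117 and 0.0192 (log2 0.74). En2 was thus above the range with SBE6 and below it with Shh. Cnpy1 was within the range (0.00447, 0.00991 and 0.00917). On the far side Mnx1 was above it (0.00630, 0.00457 and 0.00734, log2 0.39), below the bin-pair median of 0.44. Nom1 (0.00422, 0.00636 and 0.00541) and Ube3c (0.00955, 0.00142 and 0.00540) were within it.

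Among the pairs without Shh or SBE6, ZRS and Lmbr1 had the largest differences above the range. En2 with ZRS, 1143 kb apart, had 0.00699, 0.00241 and 0.0111 (log2 1.23), and En2 with Lmbr1 0.00779, 0.00166 and 0.00941 (log2 1.13). Insig1 with ZRS had 0.0119, 0.00412 and 0.0148 (log2 0.97). In these 3 pairs ESC replicate 1 lay much closer to tSBE6-Vp64 than ESC replicate 2 did. The largest differences below the range joined the 2 ends of the region. Insig1 with Ube3c had 0.0122, 0.0168 and 0.00715 (log2 -0.92), Cnpy1 with Mnx1 0.0104, 0.0105 and 0.00727 (log2 -0.47) and Insig1 with Mnx1 0.00982, 0.00662 and 0.00585 (log2 -0.41).

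The differences also varied with distance. Pairs under 20 kb apart held 56.1% and 55.0% of the ESC signal and 49.4% of the tSBE6-Vp64 signal, with a mean of 0.702, 0.688 and 0.618 per pair, below the ESC range. Between 20 and 50 kb the mean was 0.0680, 0.0448 and 0.0762, and between 50 and 100 kb 0.0376, 0.0331 and 0.0414. Between 100 and 200 kb it was 0.0244, 0.0233 and 0.0280, and between 200 and 350 kb 0.0166, 0.0126 and 0.0187. In these 4 classes tSBE6-Vp64 lay above both ESC libraries. It lay within the range between 350 and 500 kb (0.0119, 0.0231 and 0.0184), between 500 and 800 kb (0.00854, 0.00933 and 0.00931) and over 800 kb (0.00763, 0.00950 and 0.00801). Since each library sums to the same total, less signal under 20 kb leaves more for all other pairs. When each library was scaled over pairs more than 20 kb apart, no class up to 500 kb lay outside the ESC range, and those from 500 to 800 kb and over 800 kb lay below it.

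**Figure D2:**
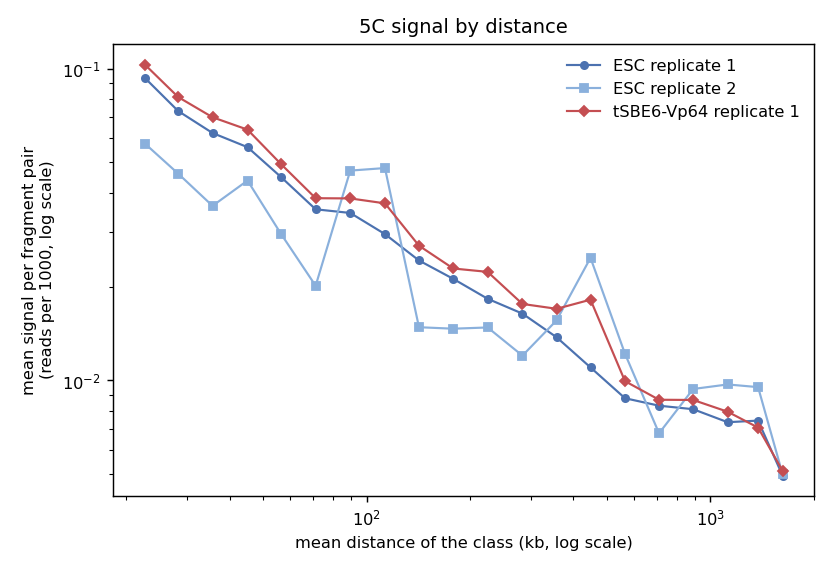
Mean signal per fragment pair against the mean distance of the class, both on log scales, for each of the 3 libraries. In 12 of the 17 classes that begin between 20 and 1000 kb, tSBE6-Vp64 lies above both ESC libraries; ESC replicate 2 is less regular than the others, with 0.0471 and 0.0480 in the classes at 89.7 and 113 kb.

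The fall of signal with distance had about the same steepness as in ESC replicate 1. The slope of log10 mean signal on log10 distance from 20 to 796 kb was -0.687 in ESC replicate 1, -0.482 in ESC replicate 2 and -0.658 in tSBE6-Vp64. To take distance out, each fragment pair was also divided by the mean of its distance class in its own library, giving observed over expected. On this scale 27 of the 91 window pairs (29.7%) lay above the ESC range and 20 (22%) below it. Shh with SBE6 was 0.563 and 0.355 in the ESC replicates and 0.781 in tSBE6-Vp64, above both. All 3 values were below 1, so the signal of this pair was below the mean for its distance in each library. That mean was uneven in ESC replicate 2, with 0.0471 in the class at 89.7 kb against 0.0201 at 71.1 kb. Shh remained above the range with SBE4 (1.32, 0.792 and 1.5), Rnf32 (1.38, 0.967 and 1.87) and ZRS (2.51, 1.19 and 3.41), but not with SBE2 (1.13, 0.268 and 1.07). Of the 13 pairs of SBE6, 9 lay above the range on this scale and 0 below it; SBE2 moved within the range (1.36, 0.662 and 1.27).

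Over all pairs of 20-kb bins, 1577 of 3504 (45%) lay above the ESC range and 553 (15.8%) below it. More than 2-fold above the higher ESC value lay 8.33% of the bin pairs, and more than 2-fold below the lower one 3.62%. As observed over expected, 35.1% lay above and 18.8% below the range, with 6.54% and 3.94% past it by more than 2-fold. By position, 63.3% of the bin pairs within the Shh side lay above the range and 7.21% below it. Within the domain these shares were 52.5% and 10.3%, between Shh side and domain 47.6% and 14%, and within the far side 40.0% and 8.15%. Between domain and far side they were 29.1% and 27.3%, nearly equal, and between Shh side and far side 34.8% and 23.2%.

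**Figure D3:**
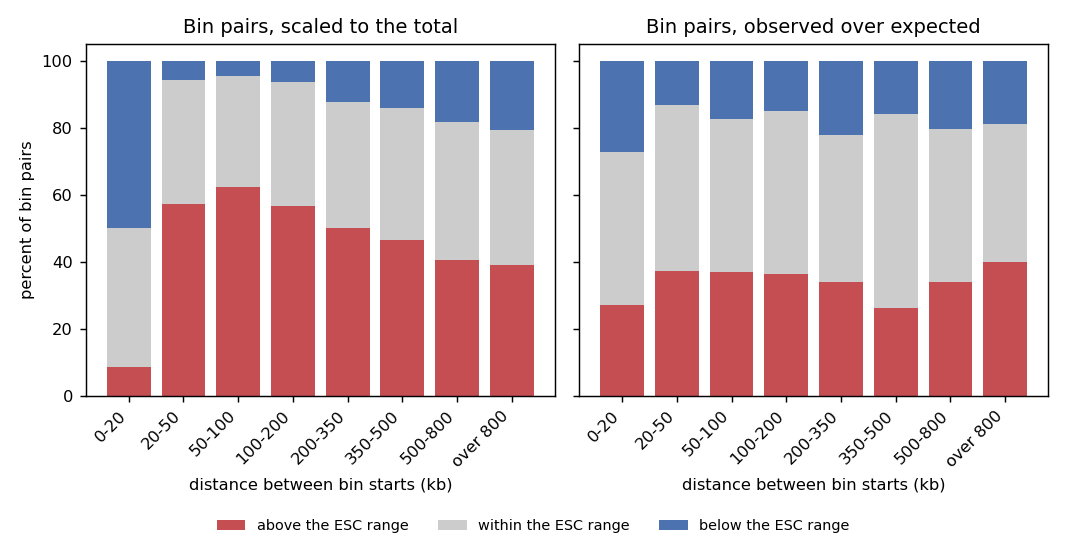
Percent of 20-kb bin pairs above, within and below the ESC range by the distance between bin starts, for signal scaled to the library total (left) and for observed over expected (right). The class 0-20 holds only pairs of a bin with itself. On the left, 8.57% of these and 62.3% of pairs from 50 to 100 kb lie above the range. On the right the shares above run from 26.1% to 39.8%.

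Among bin pairs above 0 in all 3 libraries and holding at least 4 fragment pairs, those farthest above and below the range by ratio were named, 5 each way. Of those above the range, bins starting at 28820001 (just beyond Shh) and 29760001 (Nom1) had the highest signal, with 0.00655 and 0.00542 in ESC and 0.0822 in tSBE6-Vp64 (log2 3.60). The pair of Shh_158 with Shh_482 held 95.9% of that value. Bins 28680001 (Rbm33) and 29340001 had 9.87e-05, 8.07e-06 and 0.00471, of which Shh_115 with Shh_330 held 70.4%. Bins 28500001 (En2) and 29220001 (SBE2) had 5.09e-04, 1.73e-04 and 0.00562, of which Shh_57 with Shh_287 held 54.9%. Bins 28440001 and 29820001 had 0.00118, 9.68e-06 and 0.0101, and bins 28460001 and 29880001 had 1.02e-04, 2.42e-05 and 0.00146. None of the 5 joined Shh or SBE6, and in all 5 a single fragment pair held between 45.4% and 95.9% of the tSBE6-Vp64 signal.

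Of those below the range, all 5 were nearly empty in tSBE6-Vp64. Bins 28720001 and 29120001 (SBE4) had 0.00844 and 0.00586 in ESC and 7.92e-05 in tSBE6-Vp64. Bins 28720001 and 29740001 had 0.00489, 0.00698 and 2.53e-04, and bins 28320001 and 29860001 had 0.00646, 0.0126 and 4.13e-04. Bins 28500001 and 28920001 had 0.00227, 0.00386 and 1.36e-05, and bins 29160001 and 30000001 had 0.00311, 0.00323 and 5.66e-06. In ESC replicate 2, between 96.9% and 100% of each of these 5 values came from 1 fragment pair. For bins 29160001 with 30000001, and 28720001 with 29120001, that pair was at 0 in ESC replicate 1. There, 0 fragment pairs lay below both ESC values, against 1 or 2 in the rest.

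Along the region, the place of tSBE6-Vp64 by position depended on the scaling. The signal of a bin summed over all partners more than 20 kb away lay above the ESC range in 53 of 84 bins (63.1%) and below it in 1 (1.19%). When each library was scaled over pairs more than 20 kb apart, 29.8% of the bins lay above it, and 36.6% by the crossing signal described next. On the Shh side 18 of 25 bins lay above, in the domain 30 of 43 and on the far side 5 of 16. The bin furthest above the range began at 28440001, on the Shh side, with 5.66 and 5.52 in ESC and 9.20 in tSBE6-Vp64. Bin 28820001, just beyond Shh, had 3.11, 2.28 and 4.46, and bin 29440001, in the domain, 0.761, 0.784 and 1.11. These 3 bins hold 1 or 2 fragments. The exception below the range was bin 29380001, in the domain, with 5.40, 4.91 and 2.63, which holds 1 fragment. As observed over expected, 22 of the 84 bins (26.2%) lay above the range and 12 (14.3%) below it.

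The signal that crosses a bin, from pairs 20 to 200 kb apart with 1 fragment on either side of it, shows how well that position separates its neighbours. It lay above the ESC range in 62 of 82 bins (75.6%) and below it in 0 (0%). All 24 bins of the Shh side and 36 of 43 in the domain lay above, against 2 of 15 on the far side. As observed over expected, 35 bins (42.7%) lay above and 9 (11%) below, and the Shh side still had 23 of 24 above, the domain 12 of 43 and the far side 0 of 15. The crossing signal over the Shh side was thus higher in tSBE6-Vp64 also relative to the mean of each distance class. Neighbouring bins are crossed by many of the same fragment pairs, so these bins are not separate observations.

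Crossing signal at the edges of the domain was picked out after the values were seen. At Shh, in the bin from 28780001 to 28800000, it was 0.0102 and 0.00839 in the ESC replicates and 0.0143 in tSBE6-Vp64. At its lowest bin near Shh it came to 36.1% of the domain median in ESC replicate 1, 48.7% in ESC replicate 2 and 47.0% in tSBE6-Vp64. The low point at Shh was thus present in all 3 libraries, and relative to the domain tSBE6-Vp64 lay within the ESC range. At the Lmbr1 edge, in the bin from 29680001 to 29700000, crossing signal was 0.0136, 0.0172 and 0.0140, within the range, and as observed over expected 0.522, 0.934 and 0.478, below it. The lowest bin near this edge came to 48.2% of the domain median in ESC replicate 1, 97.0% in ESC replicate 2 and 45.9% in tSBE6-Vp64, so only ESC replicate 1 and tSBE6-Vp64 were clearly low there.

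**Figure D4:**
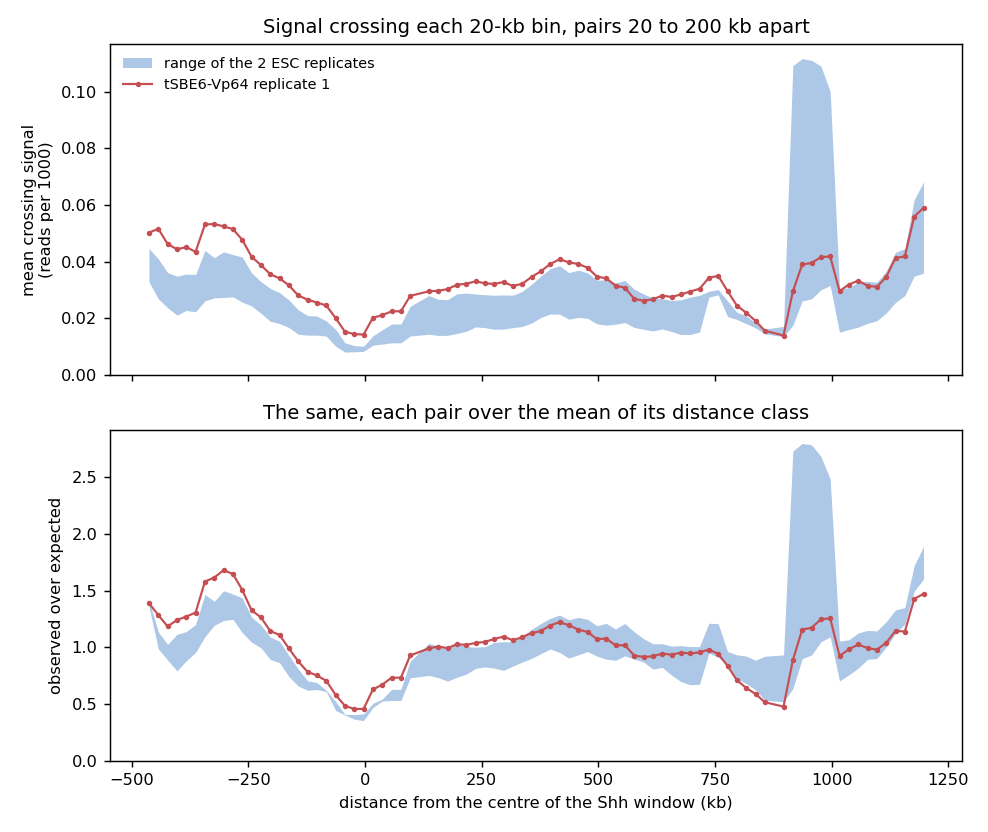
Mean signal of pairs 20 to 200 kb apart that cross each 20-kb bin (top) and the same as observed over expected (bottom), against distance from the centre of the Shh window. Neighbouring bins are crossed by many of the same fragment pairs. The band is the range of the 2 ESC replicates and the line is tSBE6-Vp64, which lies above the band in all 24 bins of the Shh side at the top and in 23 of 24 at the bottom; the wide part of the band, just beyond the Lmbr1 edge, comes from ESC replicate 2.

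Profiles of single windows along the region can be read against all bin pairs, of which 45% lay above the range, or 52.5% of those within the domain. These shares were 35.1% and 34.6% as observed over expected. From the Shh window, 33 of 42 bins of the domain lay above the ESC range and 2 below it, with a median log2 difference of 0.65. On the Shh side 15 of 24 bins lay above and 2 below (median 0.36), and on the far side 5 of 16 above and 4 below (median 0.013). As observed over expected, the domain had 19 of 42 bins above and 3 below. From the SBE6 window, 20 of 25 bins on the Shh side lay above the range and 0 below it (median 0.51), and in the domain 25 of 42 above and 2 below (median 0.61). These were 16 of 25 on the Shh side and 14 of 42 in the domain as observed over expected, the latter near the share of all bin pairs. The SBE2 window, which this group's label does not name, had 13 of 25 bins above and 4 below on the Shh side, and 27 of 42 above and 1 below in the domain. On the observed over expected scale 12 of 25 and 11 of 42 lay above.

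**Figure D5:**
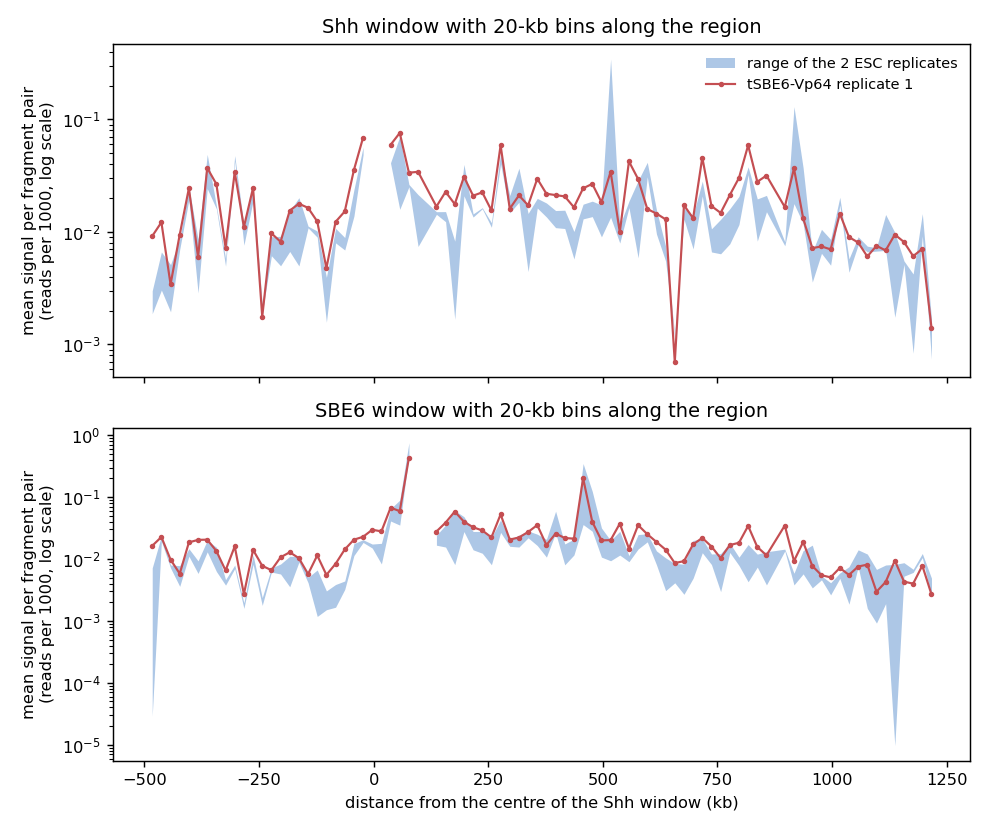
Mean signal per fragment pair (log scale) of the Shh window (top) and the SBE6 window (bottom) with each 20-kb bin, against distance from the centre of the Shh window. The band is the range of the 2 ESC replicates and the line is tSBE6-Vp64, above the band in 33 of 42 domain bins from Shh and in 20 of 25 Shh-side bins from SBE6.

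The signal joining the domain with sequence outside it did not stand out. It made up 11.7% of the signal in ESC replicate 1, 20.2% in ESC replicate 2 and 14.4% in tSBE6-Vp64. Signal within the Shh side was 15.2%, 14.6% and 16.5%, above the ESC range, and within the far side 19.1%, 17.3% and 16.7%, below it. Signal within the domain was 51.7%, 45.5% and 50.0%, within the range. Shh side with domain had 5.85%, 11.7% and 8.63%, also within it, and domain with far side 5.86%, 8.45% and 5.75%, below it.

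A few far fragment pairs took a large part of some libraries. The highest pair over 50 kb apart in tSBE6-Vp64 joined Shh_140 (28763979 to 28767078), beside the Shh window, with Shh_260 (29166827 to 29168466), which lies between the SBE4 and SBE2 windows. It had 0.492 in ESC replicate 1, 33.2 in ESC replicate 2 and 16.0 in tSBE6-Vp64. The next were Shh_458 with Shh_491 (0.438, 24.8 and 5.26), Shh_178 with Shh_295 (0.352, 10.1 and 5.24), Shh_13 with Shh_81 (0.183, 5.79 and 3.38) and Shh_330 with Shh_529 (0.0405, 2.85 and 1.47). Shh_178 lies in the SBE6 window. All 5 lay within the ESC range, nearer to replicate 2 on a log scale, and the tSBE2-Vp64 library had 91.4, 58.8, 51.2, 24.2 and 21.1 for the same 5. Far pairs that each held over 0.5% of a library numbered 0 in ESC replicate 1, 7 in ESC replicate 2 and 3 in tSBE6-Vp64, with 0%, 10.8% and 2.65% of the signal.

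Correlations between libraries are descriptive, since fragment pairs share fragments and depth, and they were not recomputed without these far pairs. Over 28181 pairs more than 20 kb apart, Pearson's r with tSBE6-Vp64 was 0.335 for ESC replicate 1 and 0.843 for ESC replicate 2. Spearman's rho had the opposite order, with 0.599 and 0.348. The 2 ESC replicates correlated at 0.192 by Pearson's r. The ESC replicates were thus less alike by Pearson's r than either was to tSBE6-Vp64.

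The other single-activator library, tSBE2-Vp64, is also 1 replicate, and its contacts are given side by side with no difference drawn. Its signal of Shh with SBE6 was 0.0166, with SBE4 0.0112, with SBE2 0.00934 and with ZRS 0.0152. For SBE6 with SBE4 it was 0.0913 and for SBE6 with Rbm33 0.00526.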

How the data were processed

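The deposited matrices give, per pair of HindIII fragments, a signal that the authors scaled to reads per 1000 of the library. In every library used, values up to 20 times the smallest step were whole multiples of it in 100% of cases (to within 0.05 of the step), and the step gave the depth. The build is mm9, per the submitters' processing notes and the fragment names. Neither the aligner nor the read filters were given in the sources used here.

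Fragments shared by all files were kept, each library was rescaled to 1000, and pairs at 0 in every library of the series were left out. Fragments were placed by midpoint in 20-kb bins and in windows around approximate positions taken from knowledge of the locus. The files do not pair fragments with genes, and exons and introns are not assigned. No sequence is shown, since a genome of this build was not used here. Deposited averages of other groups were not used.

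The text names Shh and SBE6 with every window, the 3 highest and 3 lowest other window pairs outside the ESC range, up to 5 bin pairs and 3 bins each way, and the 5 highest far fragment pairs. Members, windows and lists were chosen with earlier results of these data known. Alternatives numbered 19, of which 2 were added after the values were seen. The code was tested on simulated data. Python 3.11.15, numpy 2.4.6 and pandas 2.3.3 were used.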

Additional observations from a re-analysis of the deposited data

How the results depend on the processing

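Shh with SBE6 lay above the ESC range under all 13 alternatives that keep both ESC libraries. Its log2 difference ran from 0.32 to 1.32, with 1.32 for windows of 10 kb to each side, 0.57 for 40 kb, 0.55 after division by the bin-pair median and 0.32 for observed over expected without far pairs over 0.5% (added after the values were seen). Relative to the bin-pair median it was above 0 in 15 of 15, as were Shh with SBE4, SBE2, Rnf32 and ZRS. Without 1 ESC library, window pairs above ran from 54.9% to 75.8% and below from 24.2% to 45.1%. Bin pairs above ran from 55.9% to 73.3%, below from 26.6% to 44.1%, over 2-fold above from 13.8% to 44.8% and over 2-fold below from 9.93% to 10.8%. Against 1 ESC library the range is a single value, so none of these shares could be lower than with both. Most counts also differed between the 2 ESC libraries, and with 2 the range is a coarse yardstick.

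Scaled over pairs more than 20 kb apart, 5.88% of distance classes (main 70.6%), 29.8% of bins by summed signal and 36.6% by crossing signal lay above the range. Window pairs below it came to 20.9%, with a domain share of 28.1%. Over 50 kb these were 14.3%, 26.2%, 32.9% and 20.9%, with 27.5% of window pairs above and a domain share of 32.7%. As observed over expected, 22.0% of window pairs lay below, and 26.2% and 42.7% of bins above by summed and crossing signal; without far pairs over 0.5% these were 24.2%, 31.0% and 45.1%. Window pairs below were 28.6% after division by the bin-pair median and 31.9% over pairs above 0 in all 3 libraries, where bin pairs below were 24.3% and over 2-fold below 8.69%. Bin pairs over 2-fold above were 14.4% with 10-kb bins and 2.84% with 40-kb bins, where 0.507% were over 2-fold below.

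Signs turned for Shh with Insig1 (-0.13 with 10-kb windows, -0.046 and -0.011 scaled over 20 and 50 kb, -0.039 as observed over expected, -0.063 without far pairs as well, -0.14 divided by the median). They also turned for Insig1 with Ube3c (1.25 and 0.011 with windows of 10 and 40 kb), Shh with En2 (0.21) and Mnx1 (0.37) at 40 kb, and Shh with Rbm33 (-0.00027, observed over expected without far pairs). SBE6 with Mnx1 (-2.23) and bins 28500001 with 29220001 (-1.37) turned over pairs above 0 in all 3 libraries, and bins 28720001 with 29120001 (0.64) with 40-kb bins. The causes were not tested. No paired analysis was possible because the groups share only 1 replicate number.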
